A study of Homo sapiens with 4 samples.

Results

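The miR-30 family was described here by its 5 guide strands, hsa-miR-30a-5p, hsa-miR-30b-5p, hsa-miR-30c-5p, hsa-miR-30d-5p and hsa-miR-30e-5p. They were chosen by name, with earlier results of these data known. They are 5 of the 1474 miRNAs with at least 1 count in the 4 libraries. All 5 were listed in every library. Small RNA was sequenced from 4 lines with 1 library per line. HCT116 and RKO, established human colorectal cancer cell lines, were the unirradiated parents. Each gave rise to 1 acquired radioresistant line, named HCT116-R and RKO-R. The HCT116-R and RKO-R lines had received X-ray rounds of 4 Gy, 40 Gy in total, and then grew unirradiated for 3 weeks or longer. Whether a radioresistant line is 1 clone or a mixed population was not given in the sources used here. Each change was compared between 2 libraries without a replicate, so a difference describes these libraries and not radioresistance in general.

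MiRNAs are cut from hairpin transcripts into short duplexes. The guide strand of a duplex is kept in an Argonaute protein and lowers the output of mRNAs that pair with its seed, and the other strand is mostly degraded. The miR-30 guides share their seed and are known for repressing SNAI1, a transcription factor of the epithelial-mesenchymal transition, and BECN1, a protein that starts autophagy. In epithelial tissues they are counted among the miRNAs of the differentiated state.

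The mature sequences show how close the guides are to each other, and they were taken from RefSeq on GRCh38. A sequence was matched for 3 of the 5 guides, with the seed, bases 2 to 8, in capitals.
miR-30a-5p: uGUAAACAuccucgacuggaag
miR-30c-5p: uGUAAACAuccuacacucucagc
miR-30e-5p: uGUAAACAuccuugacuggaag

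These 3 guides have their first 12 bases in common. MiR-30a-5p and miR-30e-5p differ at 1 of 22 bases, C13U, with miR-30a-5p named first and positions counted from the 5′ end. A read with an error at that base can be counted for the wrong one. How reads that match several miRNAs were divided was not given in the sources used here. Single values of miR-30a-5p and miR-30e-5p are therefore uncertain in that respect. No sequence was matched for miR-30d-5p, so how far it differs from miR-30a-5p is not shown here. It was far more abundant, with 25652 counts against 36 of miR-30a-5p in RKO and 2665 against 8 in HCT116. Whether some reads of miR-30d-5p were counted as miR-30a-5p was not tested. Among the 1313 miRNAs of the files that have a RefSeq sequence, 3 carry this seed, and all of them are members.

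The strand from the other side of each hairpin, the 3p strand, is shown for 4 of the 6 hairpins, because the results on strand use and on the 2 hairpins of miR-30c rest on telling these strands apart. Their bases 2 to 8 are in capitals.
miR-30a-3p: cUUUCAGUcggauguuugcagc
miR-30e-3p: cUUUCAGUcggauguuuacagc
miR-30c-1-3p: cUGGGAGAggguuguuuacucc
miR-30c-2-3p: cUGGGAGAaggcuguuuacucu

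MiR-30a-3p and miR-30e-3p differ at 1 of 22 bases, G18A. MiR-30c-1-3p and miR-30c-2-3p differ at 3 of 22 bases, G9A, U12C and C22U, whereas the 5p strand of both hairpins is the same miR-30c-5p. The MIR30E and MIR30C1 hairpins lie on chromosome 1 (plus strand) at 40754355 to 40754446 and at 40757284 to 40757372, with 2837 bases between them. Both are in introns of the protein-coding gene NFYC, a subunit of the transcription factor NF-Y. The MIR30C2 and MIR30A hairpins lie on chromosome 6 (minus strand) at 71376960 to 71377031 and at 71403551 to 71403621, with 26519 bases between them. Both are in introns of 2 overlapping long non-coding RNA genes, LINC00472 and AL136164.2, on the same strand. No annotated exon of another gene overlaps these 4 hairpins in GENCODE release 29.

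The libraries held between 6818497 counts in HCT116-R and 7140460 in RKO. Levels are given as counts per 1000000 of the library total (CPM) with 95% Wilson confidence intervals, and 3 counts, between 0.420 and 0.440 CPM, were taken as the floor of detection. Intervals and floor cover counting error only. Of 9 epithelial marker miRNAs, 8 were above the floor in every library, and their sum was 63649 CPM in HCT116 against 59230 in HCT116-R, and 10538 in RKO against 12242 in RKO-R. MiR-215-5p had no count in HCT116, RKO and RKO-R. The epithelial sum was led by miR-200c-3p in HCT116 (291469 of 434294 counts) and HCT116-R (286432 of 403860). It was led by miR-429 in RKO (51772 of 75246) and RKO-R (61087 of 84630). Of 8 markers of blood, endothelial and mesenchymal cells, between 4 and 8 were above the floor, and their sum, led by miR-126-3p in every library, ranged from 3635 CPM in HCT116-R to 8354 CPM in RKO. The epithelial sum was lower in RKO and RKO-R, and the other sum was higher there through miR-126-3p alone. This miRNA held 59485 of 59648 counts of that list in RKO and 55431 of 56045 in RKO-R. It held 26945 of 29194 in HCT116 and 23539 of 24786 in HCT116-R. The rest of that list was together lower in RKO and RKO-R, where 4 and 6 of its 8 markers were above the floor. In both HCT116 libraries all 8 were. The part of these markers in the miR-30 results was not tested.

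The summed level of the 5 guides was 1675 CPM (1644 to 1706) in HCT116 against 1451 (1422 to 1480) in HCT116-R, and 5604 (5549 to 5659) in RKO against 2960 (2919 to 3000) in RKO-R. Both RKO libraries were above both HCT116 libraries, and the highest sum was 3.86 times the lowest. MiR-30b-5p and miR-30d-5p, which are encoded next to each other, made up between 93.5% of the sum in HCT116-R and 98.8% in RKO-R. MiR-30b-5p ranked between 48 and 68 and miR-30d-5p between 38 and 101 among the miRNAs of a library. The other 3 guides were much less abundant, with ranks from 182 to 231 for miR-30c-5p, from 196 to 307 for miR-30e-5p and from 248 to 576 for miR-30a-5p. In bulk RNA, a lower level in all cells and fewer cells with a guide cannot be told apart.

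MiR-30d-5p, which with miR-30b is known for targeting the glycosyltransferase GALNT7, had 2665 counts in HCT116 against 3818 in HCT116-R, and 25652 in RKO against 7385 in RKO-R. In CPM this was 391 (376 to 406), 560 (542 to 578), 3592 (3549 to 3637) and 1068 (1044 to 1093), so RKO stood apart from the other 3 libraries. MiR-30b-5p varied less, with 1224 CPM (1198 to 1251) in HCT116 against 797 (776 to 818) in HCT116-R, and 1921 (1890 to 1954) in RKO against 1855 (1823 to 1887) in RKO-R. Its highest level was 2.41 times its lowest, against 9.20 times for miR-30d-5p.

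MiR-30c-5p, which is known for targeting the microsomal lipid transfer protein MTTP, was at 45.7 CPM (40.9 to 51.1) in HCT116 against 45.5 (40.7 to 50.8) in HCT116-R, and 51.0 (46.0 to 56.5) in RKO against 15.6 (12.9 to 18.9) in RKO-R. The intervals of the first 3 libraries overlapped and RKO-R was below them. MiR-30e-5p was at 13.0 CPM (10.6 to 16.0) in HCT116 against 22.7 (19.4 to 26.6) in HCT116-R, and 33.9 (29.9 to 38.4) in RKO against 16.8 (14.0 to 20.1) in RKO-R. RKO was the highest library for this guide, and the interval of RKO-R overlapped those of HCT116 and HCT116-R. MiR-30a-5p, the member best known for repressing BECN1, had 8 counts in HCT116 against 177 in HCT116-R, and 36 in RKO against 30 in RKO-R. In CPM this was 1.17 (0.594 to 2.31), 26.0 (22.4 to 30.1), 5.04 (3.64 to 6.98) and 4.34 (3.04 to 6.19). MiR-30a-5p was thus the scarcest guide in HCT116, RKO and RKO-R, and its highest level was 22.1 times its lowest, the widest range of the 5.

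**Figure D1:**
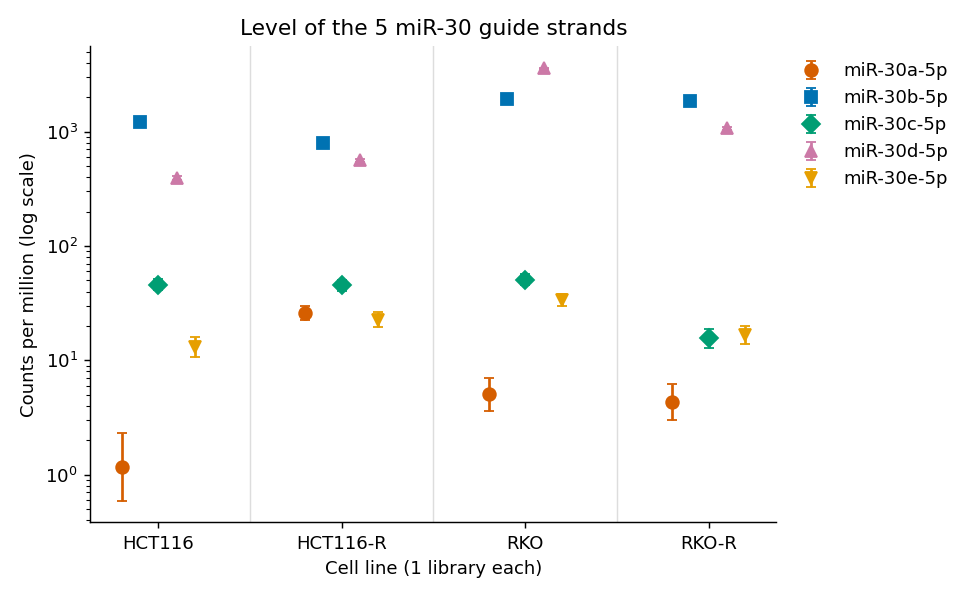
The vertical axis gives CPM on a log scale for each guide strand and the horizontal axis the 4 lines, with 1 library each. Points are levels and bars are 95% Wilson intervals. MiR-30b-5p and miR-30d-5p lie at or above 391 CPM in every library, the other guides lie at or under 51.0 CPM, and miR-30a-5p rises from 1.17 CPM in HCT116 to 26.0 CPM in HCT116-R.

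The order of the guides differed between the libraries. It was miR-30b, miR-30d, miR-30c, miR-30e and miR-30a in HCT116, where no neighbours had overlapping intervals. In HCT116-R miR-30a-5p and miR-30e-5p changed places, and their intervals overlapped. In RKO miR-30d-5p was above miR-30b-5p and no neighbours overlapped. In RKO-R miR-30b-5p was again first, and miR-30e-5p and miR-30c-5p followed miR-30d-5p with overlapping intervals.

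As shares of the summed guides, miR-30b-5p held 73.1% (72.3 to 73.9) in HCT116 against 54.9% (53.9 to 55.9) in HCT116-R, and 34.3% (33.8 to 34.8) in RKO against 62.7% (62.0 to 63.3) in RKO-R. MiR-30d-5p held 23.3% (22.6 to 24.1), 38.6% (37.6 to 39.6), 64.1% (63.6 to 64.6) and 36.1% (35.4 to 36.8) in the same order. The ratio of miR-30b-5p to miR-30d-5p counts was therefore 3.13 in HCT116 against 1.42 in HCT116-R, and 0.535 in RKO against 1.74 in RKO-R. It was lower in the radioresistant library of the HCT116 pair and higher in that of the RKO pair. The other 3 guides held 3.58% (3.25 to 3.94) of the sum in HCT116 against 6.49% (6.02 to 6.99) in HCT116-R, and 1.60% (1.49 to 1.73) in RKO against 1.24% (1.10 to 1.40) in RKO-R. MiR-30a-5p alone held 0.0700% (0.0355 to 0.138) of the HCT116 sum and 1.79% (1.55 to 2.07) of the HCT116-R sum.

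**Figure D2:**
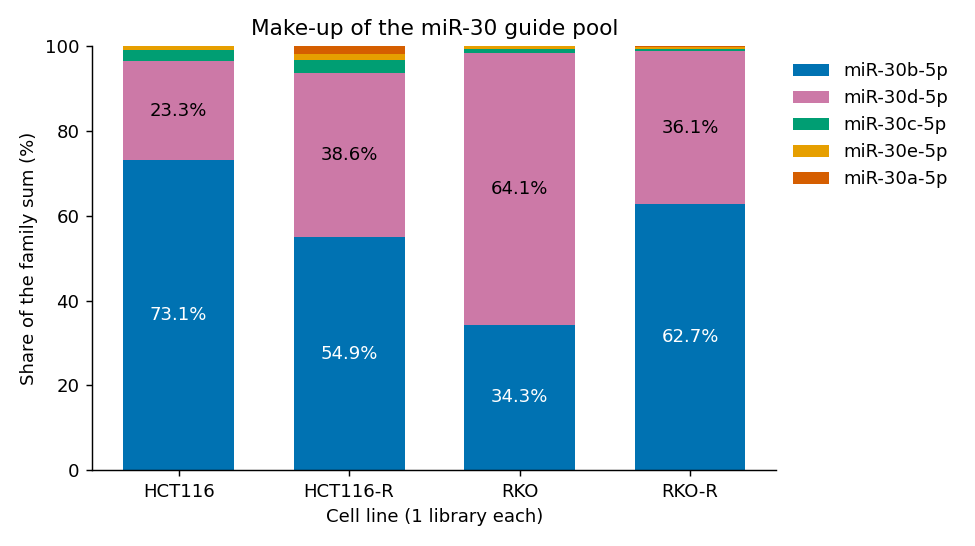
Each bar is 1 library and stacks the share of the summed guide counts, in percent, held by each guide strand. MiR-30d-5p takes 64.1% in RKO and between 23.3% and 38.6% in the other 3 libraries, where miR-30b-5p is the larger part.

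To ask which guides differed between a radioresistant line and its parent, the libraries of a pair were compared with the exact test of edgeR at a biological coefficient of variation (BCV) of 0.2, the value that the methods of the study name. A miRNA was called at a Benjamini-Hochberg adjusted p under 0.05 over every miRNA counted in either library of the pair. With no replicates, this BCV is an assumption on which every p-value and standard error (SE) depends. Fold changes were scaled by TMM, a factor per library that centres the bulk of the miRNAs, and a change of at least 2-fold was counted beside the test.

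In HCT116-R, 1 of the 5 guides was called against HCT116, and 4.01% of the 1322 miRNAs tested were called. The called guide was miR-30a-5p, which rose from 8 to 177 counts, or 4.43 on the log2 scale (SE 0.66, adjusted p = 2.65e-11). The ratio of its CPM was 22.1, with an exact counting interval of 11.0 to 52.1. The other 4 guides were not called. Their log2 fold changes were 0.78 (SE 0.45, adjusted p = 0.586) for miR-30e-5p, 0.50 (SE 0.41, adjusted p = 0.896) for miR-30d-5p, -0.03 (SE 0.42, adjusted p = 1) for miR-30c-5p and -0.64 (SE 0.41, adjusted p = 0.680) for miR-30b-5p. A change of at least 2-fold was found for 1 of the 5 guides, again miR-30a-5p, and for 46% of all miRNAs tested, most of which had low counts. Among the 65 miRNAs with a mean of at least 1000 CPM in the pair, 9.23% changed that much and 7.69% were called. The median log2 fold change was 0.50 for the 5 guides and 0.07 for all miRNAs tested. Summed as one feature, miR-30a-5p, miR-30d-5p and miR-30e-5p gave a log2 fold change of 0.60 (adjusted p = 0.733, edgeR). With 2665 counts of miR-30d-5p in HCT116 against 8 of miR-30a-5p, this sum follows miR-30d-5p and cannot show what miR-30a-5p did.

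In RKO-R, 2 of the 5 guides were called against RKO, both lower, beside 5.54% of 1155 miRNAs tested. MiR-30d-5p fell from 25652 to 7385 counts, or -1.51 on the log2 scale (SE 0.41, adjusted p = 0.0107). MiR-30c-5p fell from 364 to 108 counts, or -1.47 on the log2 scale (SE 0.44, adjusted p = 0.0294). MiR-30e-5p was at -0.78 (SE 0.44, adjusted p = 0.493), and miR-30b-5p and miR-30a-5p stood at 0.19 (SE 0.41) and 0.02 (SE 0.54), both with an adjusted p of 1. MiR-30b-5p and miR-30a-5p were slightly lower in RKO-R by CPM and not lower after TMM, so no direction was read for them. The same 2 guides, miR-30d-5p and miR-30c-5p, passed the 2-fold limit, which 50.4% of all miRNAs and 10.9% of the 64 miRNAs with at least 1000 CPM also passed. Of these 64 miRNAs, 9.38% were called. The median log2 fold change was -0.78 for the guides and 0.02 for all miRNAs tested. Both calls were lost at a BCV of 0.4.

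**Figure D3:**
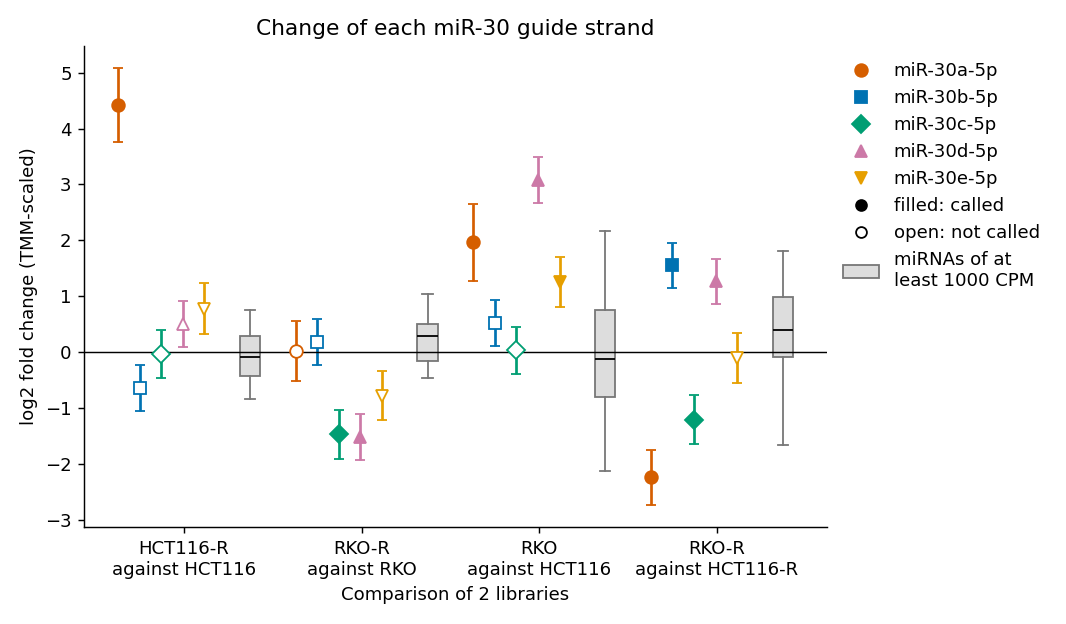
The vertical axis gives the TMM-scaled log2 fold change for each guide strand in 4 comparisons of 2 libraries, with bars of 1 SE from the counts and the assumed BCV. Filled points were called at an adjusted p under 0.05. Grey boxes show the quartiles, and their whiskers the 5th and 95th percentile, of the miRNAs with a mean of at least 1000 CPM. MiR-30a-5p stands at 4.43 in HCT116-R against HCT116, and miR-30d-5p stands at -1.51 in RKO-R against RKO and at 3.08 in RKO against HCT116.

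The changes of the 2 pairs were compared with each other in a fit of all 4 libraries, by a likelihood ratio test of the interaction between cell line and radioresistance at the same BCV. The interaction was called for 2 of the 5 guides and for 4.75% of 1474 miRNAs. The change in RKO-R against RKO minus that in HCT116-R against HCT116 was -4.44 on the log2 scale for miR-30a-5p (adjusted p = 5.08e-06, edgeR) and -2.04 for miR-30d-5p (adjusted p = 0.0141, edgeR). For miR-30e-5p, miR-30c-5p and miR-30b-5p it was -1.59, -1.47 and 0.79, with adjusted p-values of 0.140, 0.174 and 0.625. Both calls were lost at a BCV of 0.4.

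The summed guides were 1.17-fold lower in HCT116-R than in HCT116 and 1.61-fold lower in RKO-R than in RKO after TMM, with log2 fold changes of -0.23 and -0.68. The sum follows miR-30d-5p in the RKO pair. Without this guide, the other 4 guides had 2011 CPM in RKO and 1891 CPM in RKO-R, and the log2 fold change after TMM was 0.15. They were lower in RKO-R by CPM and higher after TMM, so no direction was read. In the HCT116 pair, 8763 counts stood against 6074 without it, and the log2 fold change was -0.55, since miR-30d-5p was higher and miR-30b-5p lower in HCT116-R. These sums have no test.

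The parental lines were compared in the same way. They share libraries with the comparisons above, so the values stand side by side and no overlap is given. In RKO, 3 of the 5 guides were called against HCT116, all higher, beside 25.5% of 1289 miRNAs tested. The log2 fold change of miR-30d-5p was 3.08 (SE 0.41, adjusted p = 8.49e-11), that of miR-30a-5p 1.96 (SE 0.70, adjusted p = 0.0230) and that of miR-30e-5p 1.25 (SE 0.45, adjusted p = 0.0253). MiR-30b-5p, at 0.52 (SE 0.41, adjusted p = 0.448), and miR-30c-5p, at 0.03 (SE 0.42, adjusted p = 1), were not called. The 3 called guides were also past 2-fold, as were 69% of all miRNAs and 38.5% of the 65 with at least 1000 CPM. Of these 65 miRNAs, 36.9% were called. Summed as one feature, miR-30a-5p, miR-30d-5p and miR-30e-5p were called at a log2 fold change of 3.04 (adjusted p = 1.37e-10, edgeR). This sum consists almost wholly of miR-30d-5p. At a BCV of 0.4, miR-30d-5p was the 1 guide still called. MiR-30a-5p had 8 counts in HCT116 and 36 in RKO, while miR-30a-3p, from the same hairpin, had 7 and 4.

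In RKO-R against HCT116-R, 4 of the 5 guides were called, beside 23.2% of 1333 miRNAs tested. MiR-30b-5p (log2 fold change 1.55, SE 0.41, adjusted p = 0.00160) and miR-30d-5p (1.27, SE 0.41, adjusted p = 0.0128) were higher in RKO-R. MiR-30a-5p (-2.24, SE 0.50, adjusted p = 8.80e-05) and miR-30c-5p (-1.21, SE 0.44, adjusted p = 0.0335) were lower, and miR-30e-5p was not called (-0.10, SE 0.44, adjusted p = 1). These 4 guides passed the 2-fold limit, as did 69.7% of all miRNAs and 37.5% of the 64 with at least 1000 CPM. The called share of these 64 miRNAs was also 37.5%. MiR-30d-5p was not called with library totals (log2 fold change 0.93) or with TMM over all 4 libraries (1.03), and no guide was called at a BCV of 0.4. The summed guides were 3.07-fold higher in RKO than in HCT116 and 2.57-fold higher in RKO-R than in HCT116-R. Without miR-30d-5p these ratios were 1.44 and 2.68, so that guide held most of the difference between the parental lines and not of that between the radioresistant lines.

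The 6 strands from the opposite side of the hairpins are the other miRNAs of the family. In HCT116-R against HCT116, 2 of the 6 were called, both higher, beside 4.01% of all miRNAs tested. MiR-30a-3p had 7 counts in HCT116 against 89 in HCT116-R, and 4 in RKO against 5 in RKO-R, so HCT116-R stood apart from the other 3 libraries as it did for miR-30a-5p. Its log2 fold change in the HCT116 pair was 3.62 (SE 0.70, adjusted p = 8.87e-07). MiR-30c-2-3p, from the neighbouring hairpin on chromosome 6, had 2 counts in HCT116 against 20 in HCT116-R, and 3 in RKO against 3 in RKO-R. Its ratio of CPM in the HCT116 pair was 10, with an exact counting interval of 2.43 to 88.3, and its log2 fold change was 3.22 (SE 1.15, adjusted p = 0.0287). It was at or under the floor in the other 3 libraries.

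In HCT116-R, all 3 strands that are specific to the chromosome 6 hairpins, miR-30a-5p, miR-30a-3p and miR-30c-2-3p, were thus called as higher, beside the same 4.01% of all miRNAs, while miR-30c-5p, which both loci encode, had 312 and 310 counts in this pair. MiR-30c-1-3p, the 3p strand of the chromosome 1 hairpin, had 275 counts in HCT116 against 145 in HCT116-R, and 139 in RKO against 48 in RKO-R. Its log2 fold changes were -0.94 (adjusted p = 0.374) in the HCT116 pair and -1.25 (adjusted p = 0.117) in the RKO pair, neither called by edgeR. Of the 3p counts of both miR-30c hairpins, miR-30c-2-3p held 0.722% (0.198 to 2.59) in HCT116 against 12.1% (7.99 to 18.0) in HCT116-R, and 2.11% (0.721 to 6.03) in RKO against 5.88% (2.02 to 15.9) in RKO-R. Most 3p counts of miR-30c came from the chromosome 1 hairpin in every library. Strands were grouped by locus after their values had been seen. The calls of the 3p strands were not recomputed at another BCV. The division of miR-30c-5p between its hairpins cannot be read from its own counts.

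In RKO-R against RKO, 0 of the 6 3p strands were called by edgeR's exact test, and 1, miR-30c-1-3p, had an unadjusted p under 0.05 (exact test, p = 0.00963). MiR-30d-3p had 292 counts in HCT116 against 187 in HCT116-R, and 358 in RKO against 259 in RKO-R. It did not follow its guide: between RKO and RKO-R its log2 fold change was -0.18 (SE 0.42, adjusted p = 1), against -1.51 for miR-30d-5p, and between HCT116 and RKO it was 0.10 (SE 0.42, adjusted p = 1), against 3.08. MiR-30b-3p had 536 and 320 counts in the HCT116 pair and 585 and 413 in the RKO pair, each with the parent first. It was called in none of the 4 comparisons. In RKO against HCT116, 2 of the 6 strands were called, both lower, beside 25.5% of all miRNAs, a share near that of the strands. In RKO-R against HCT116-R 3 were called, all lower, beside 23.2% of all miRNAs. MiR-30e-3p, which is known for targeting the NF-κB inhibitor NFKBIA, was among them in both comparisons. It had 589 counts in HCT116 against 568 in HCT116-R, and 196 in RKO against 209 in RKO-R, with both RKO libraries below both HCT116 libraries. Its log2 fold change in RKO against HCT116 was -1.78 (SE 0.43, adjusted p = 0.000362), while that of miR-30e-5p was 1.25.

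**Figure D4:**
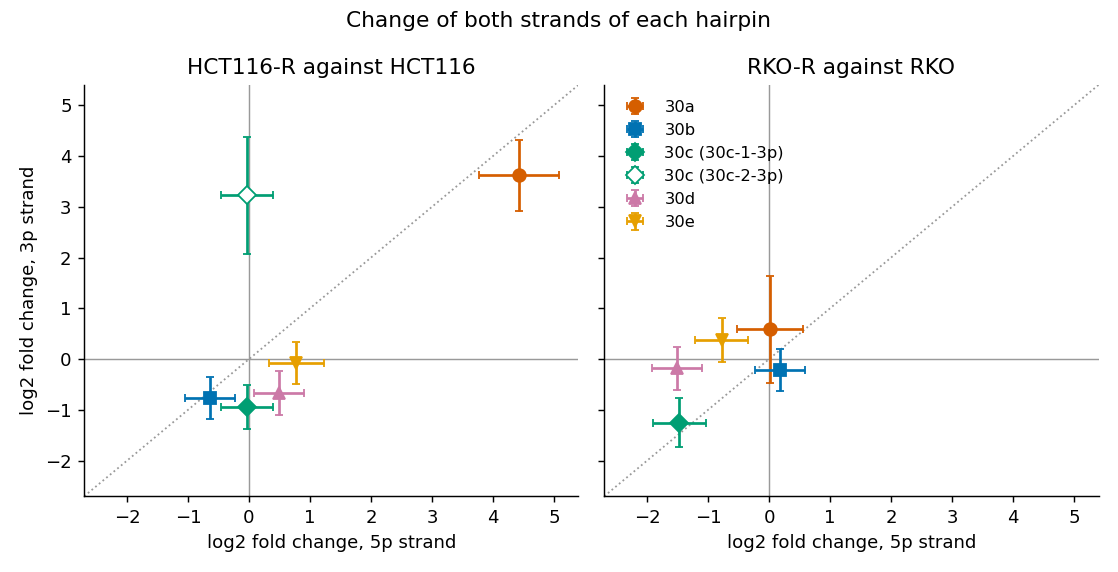
For each hairpin, the horizontal axis gives the log2 fold change of the 5p strand and the vertical axis that of the 3p strand, in HCT116-R against HCT116 and in RKO-R against RKO, with bars of 1 SE. The dotted line marks equal change, and the open point pairs miR-30c-5p with miR-30c-2-3p, which is left out of the RKO pair because it was at the floor. Both strands of miR-30a rise in HCT116-R, by 4.43 and 3.62, and in RKO-R miR-30d-5p stands at -1.51 with miR-30d-3p at -0.18.

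The share of the 3p strand in the 5p plus 3p counts separated the members. For miR-30b it was lowest in RKO-R, at 3.12% (2.84 to 3.43), and highest in HCT116, at 6.03% (5.55 to 6.54), and for miR-30d from 1.38% (1.24 to 1.53) in RKO to 9.87% (8.85 to 11.0) in HCT116. The 5p strand was thus by far the more abundant one for both. For miR-30c, with the 3p strands of both hairpins summed, it was 47.0% (43.0 to 51.1) in HCT116 against 34.7% (30.6 to 39.1) in HCT116-R, and 28.1% (24.3 to 32.1) in RKO against 32.1% (25.3 to 39.7) in RKO-R. For miR-30e it was 86.9% (84.1 to 89.2) in HCT116 against 78.6% (75.4 to 81.4) in HCT116-R, and 44.7% (40.2 to 49.4) in RKO against 64.3% (59.0 to 69.3) in RKO-R. The 3p strand of miR-30e therefore had more counts than its 5p strand in 3 of the 4 libraries, all but RKO. For miR-30a the share was 46.7% (24.8 to 69.9) of 15 counts in HCT116 and 33.5% (28.1 to 39.3) in HCT116-R, and 10% (3.96 to 23.1) and 14.3% (6.26 to 29.4) in RKO and RKO-R, where 40 and 35 counts were available.

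**Figure D5:**
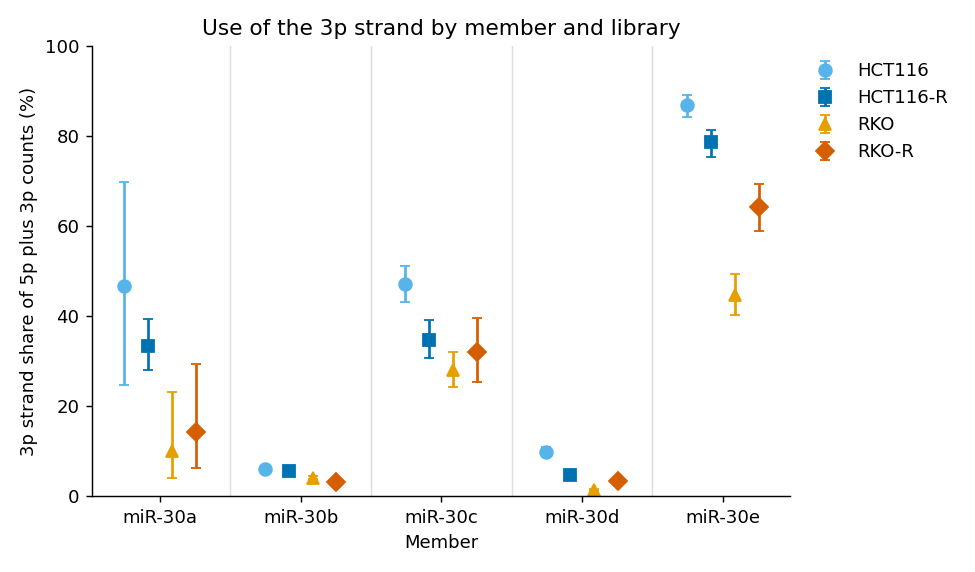
The vertical axis gives the 3p strand as a percentage of the 5p plus 3p counts for each member, with 1 point per library and 95% Wilson intervals. MiR-30b and miR-30d stay at or under 9.87%, and miR-30e lies between 44.7% in RKO and 86.9% in HCT116.

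Shifts of the ratio between the strands were set against those of all hairpins with at least 100 counts of both strands together in both libraries. This count was chosen after the values had been seen and has no test. Between HCT116 and RKO the ratio of 5p to 3p shifted toward 5p by 3.02 on the log2 scale for miR-30e and by 2.97 for miR-30d, which were the shifts of rank 10 and 12 by size among 133 hairpins. It shifted by 1.18 for miR-30c and by 0.59 for miR-30b. At least 2-fold shifts were thus found for 3 of the 4 members that reached the minimum, beside 46.6% of all hairpins. In HCT116-R against HCT116, 1 of 4 members, miR-30d, shifted at least 2-fold, by 1.16, beside 31.3% of 163 hairpins. In RKO-R against RKO, miR-30d and miR-30e shifted toward 3p, by -1.33 and -1.15, beside 30.6% of 134 hairpins. In RKO-R against HCT116-R, 1 of 4, miR-30e, shifted by 1.02, beside 44.8% of 134 hairpins. Ratios that moved past the 2-fold limit were thus frequent among all hairpins of these libraries. The 2 largest shifts of the family, those of miR-30e and miR-30d between HCT116 and RKO, were not of a frequent size. The median size among the 133 hairpins of that comparison was 0.93 on the log2 scale. MiR-30a did not reach the minimum in any comparison.

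Among the 160 miRNAs outside the family with a mean of at least 100 CPM, the profile over the 4 libraries most like that of the summed guides was that of miR-505-3p. It was at 55.7, 56.6, 175.6 and 115.4 CPM in HCT116, HCT116-R, RKO and RKO-R. Its root mean square difference from the family was 0.14 on the log2 scale after centring each profile on its mean. MiR-455-3p (0.24), miR-186-5p (0.26), miR-29a-3p (0.28) and miR-454-3p (0.31) followed. These 5 are the closest of the 160, whose median difference was 0.87. The members differed from their own sum by 0.41 for miR-30b-5p, 0.52 for miR-30d-5p, 0.58 for miR-30e-5p, 1.06 for miR-30c-5p and 1.65 for miR-30a-5p. The sum contains each member, and miR-30b-5p and miR-30d-5p together made up between 93.5% and 98.8% of it. The closeness of these 2 to the sum is therefore partly built in. Of the 160 other miRNAs, 14 were closer to the sum than miR-30b-5p, 32 than miR-30d-5p, 39 than miR-30e-5p, 104 than miR-30c-5p and 130 than miR-30a-5p.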

How the data were processed

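Small RNA of 18 to 30 nucleotides from 4 lines was sequenced on the BGISEQ-500 with adapters that carry molecular identifiers, 1 library per line. The deposited values were the authors' read counts for each mature miRNA, not normalised, and a miRNA missing from a file was given 0 counts. The submitters' processing notes name Bowtie2 and hg38. The miRNA annotation, the use of strand and the collapsing of identifiers were not given in the sources used here. Groups came from the sample titles and doses from the methods. Counts were joined by name, scaled to CPM and tested over the whole table with edgeR 4.0.16 in R 4.3.3 as described, with TMM per pair (factors 0.891 to 1.12). SE combined the counts with a BCV of 0.2. Alternatives were a BCV of 0.1 or 0.4, an unadjusted p, library totals, DESeq2 1.42.0 size factors, TMM over all 4 libraries, a minimum of 1 CPM, totals without the 10 most abundant other miRNAs, and miR-30a-5p, miR-30d-5p and miR-30e-5p summed. Strand ratios used a pseudocount of 0.5. Named miRNAs were the 5 guides, the 6 3p strands, miRNAs with the same seed and the 5 closest profiles on log2(CPM + 1). Members and lists were chosen with earlier results of these data known. The tests of edgeR were tried on data simulated at the same BCV of 0.2, which cannot show whether that BCV holds for these lines. Python 3.11.15, pandas 2.3.3, scipy 1.17.1 and matplotlib 3.10.9 were used.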

Additional observations from a re-analysis of the deposited data

Results flagged for a closer look

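The change with radioresistance differed between the cell lines for 2 guides, by the interaction test of edgeR over all 4 libraries at a BCV of 0.2, which called 4.75% of 1474 miRNAs. For miR-30a-5p the change in the RKO pair minus that in the HCT116 pair was -4.44 on the log2 scale (adjusted p = 5.08e-06), with 8 and 177 counts in the HCT116 pair (parent first) and 36 and 30 in the RKO pair. For miR-30d-5p it was -2.04 (adjusted p = 0.0141), from 2665, 3818, 25652 and 7385 counts in the same order. Each rests on 1 library per line, and neither was called at a BCV of 0.4 (adjusted p = 0.0614 for miR-30a-5p and 0.688 for miR-30d-5p). MiR-30a-3p, from the hairpin of miR-30a-5p, differed by -3.07 and was not called (adjusted p = 0.178), with 4 and 5 counts in the RKO pair, and miR-30d-3p differed by 0.45 (adjusted p = 1.00).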

How the results depend on the processing

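With 1 library per line no library could be left out and no spread between replicates is known, so the assumed BCV decides most calls. At a BCV of 0.1 the number of guides called was 2 in the HCT116 pair, 3 in the RKO pair, and 4 in RKO against HCT116, in RKO-R against HCT116-R and for the interaction. At a BCV of 0.4 it was 1 in the HCT116 pair and in RKO against HCT116, and 0 in the RKO pair, in RKO-R against HCT116-R and for the interaction. An unadjusted p called 4 guides for the interaction. With miR-30a-5p, miR-30d-5p and miR-30e-5p summed, which leaves 3 features and a sum that follows miR-30d-5p, 0 were called in the HCT116 pair and 1 in RKO against HCT116 and for the interaction.

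The scaling moved the summed guides by more than counting error without changing a direction. Their log2 fold change was -0.92 in the RKO pair, 1.74 in RKO against HCT116 and 1.03 in RKO-R against HCT116-R with library totals, and -0.71 and 1.73 in the first and second of these with DESeq2 size factors. TMM over all 4 libraries gave 1.13 in RKO-R against HCT116-R. Without the 10 most abundant other miRNAs the values were -0.068 in the HCT116 pair, -0.71 in the RKO pair, 1.83 in RKO against HCT116 and 1.18 in RKO-R against HCT116-R. For single guides, 138 recomputed tests kept their side of the threshold, 12 lost a call and 5 gained one, and no called change reversed. The 20 values without the 10 most abundant other miRNAs have no test and moved by less than 1 SE. Counts under 10, as for miR-30a-5p in HCT116, limit the precision of its ratio.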
